A study of Mus musculus with 24 samples.

Results

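The proteasome genes of the mouse lens were followed from embryonic day 15 to postnatal day 9. Members were taken by symbol, as every gene named Psm followed by a letter from a to g and a number. This gave 48 genes of the 30705 in each deposited mRNA table. The name covers more than subunits: 7 genes form the alpha ring of the core particle, 7 the constitutive beta ring, 6 the ATPase ring and 11 the rest of the regulatory particle. The others are 3 immunoproteasome subunits (Psmb8, Psmb9, Psmb10), the testis paralog Psma8, the thymus subunit Psmb11, 4 activator genes, the inhibitor Psmf1, and the assembly chaperones Psmd5, Psmd9, Psmd10 and Psmg1 to Psmg4, which leave the finished particle. The regulatory particle subunits Adrm1 and Shfm1 carry other symbols and are given among the partners.

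Lenses came from C57BL/6 mice at E15 and E18 (embryonic days 15 and 18) and at P0, P3, P6 and P9 (postnatal days 0, 3, 6 and 9). The labels name no allele or treatment. Each stage had 2 biological replicates, A and B, and each replicate pooled the lenses of 8 to 9 pups. The 12 mRNA libraries were used, at an estimated depth of 20.2 (P9 B) to 43.9 (E18 B), in units of 1e6 assigned reads. Levels are given as rescaled RPKM, that is, the deposited reads per kilobase of transcript and per library total, divided by a median-ratio factor of the library, because crystallins (16 genes) made up 33.0% of the RPKM sum in E15 lenses and 61.0% in P9 lenses. A rescaled level is therefore relative to the bulk of the expressed genes and not to the library total. The defining lens genes (Cryaa, Cryba1, Mip, Lim2 and 6 more) were present in every library.

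The proteasome is the main protease of the cytosol and nucleus. Its core particle is a barrel in which outer alpha rings gate the entry and inner beta rings hold the proteolytic sites. The regulatory particle recognises ubiquitin chains, removes them, and unfolds the substrate with a ring of ATPases that opens the gate. In lens fibre cells, which fill with crystallins and lose their nuclei and organelles, the ubiquitin pathway is one route of protein removal.

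The promoters of 5 members are shown here because the genes differ in course: Psmd4, Psmd12 and Psme4 rose between E18 and P0 on rescaled values and hold the core of an ETS site, Psmc5 rose most and holds none of the motifs searched, and Psma7 did not rise. Capitals mark the ETS core CCGGAAG, the antioxidant response core TGACNNNGC and the CCAAT box, on either strand. Each window holds 300 bases that run from upstream to just past the annotated start, from RefSeq on GRCm38.p6, printed on the gene's own strand.
Psmd4 (chr3:95042565-95042864, minus strand): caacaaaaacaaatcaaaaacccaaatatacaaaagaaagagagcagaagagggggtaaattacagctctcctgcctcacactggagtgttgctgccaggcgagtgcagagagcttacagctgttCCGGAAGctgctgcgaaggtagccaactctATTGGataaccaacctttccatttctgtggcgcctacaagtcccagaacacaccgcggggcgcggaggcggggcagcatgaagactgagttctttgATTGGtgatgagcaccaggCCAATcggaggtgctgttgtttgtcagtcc
Psmd12 (chr11:107479278-107479577, plus strand): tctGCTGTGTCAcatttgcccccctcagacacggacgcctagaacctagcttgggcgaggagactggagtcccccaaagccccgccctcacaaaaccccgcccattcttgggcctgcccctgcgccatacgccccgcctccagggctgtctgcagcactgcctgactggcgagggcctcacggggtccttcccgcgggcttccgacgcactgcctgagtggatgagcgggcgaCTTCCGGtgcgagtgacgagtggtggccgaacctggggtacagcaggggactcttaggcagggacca
Psme4 (chr11:30771525-30771824, plus strand): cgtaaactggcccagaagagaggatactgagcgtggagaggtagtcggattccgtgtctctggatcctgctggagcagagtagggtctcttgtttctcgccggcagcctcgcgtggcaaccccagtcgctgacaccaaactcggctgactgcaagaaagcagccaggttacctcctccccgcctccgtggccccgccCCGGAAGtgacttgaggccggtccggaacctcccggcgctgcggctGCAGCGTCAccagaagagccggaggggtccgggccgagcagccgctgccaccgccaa
Psmc5 (chr11:106255935-106256234, plus strand): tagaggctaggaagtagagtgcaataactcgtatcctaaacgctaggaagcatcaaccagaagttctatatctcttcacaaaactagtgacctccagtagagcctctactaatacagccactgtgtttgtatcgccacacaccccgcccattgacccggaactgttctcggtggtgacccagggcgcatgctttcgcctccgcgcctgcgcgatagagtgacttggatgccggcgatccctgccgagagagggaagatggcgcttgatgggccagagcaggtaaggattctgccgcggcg
Psma7 (chr2:180042415-180042714, minus strand): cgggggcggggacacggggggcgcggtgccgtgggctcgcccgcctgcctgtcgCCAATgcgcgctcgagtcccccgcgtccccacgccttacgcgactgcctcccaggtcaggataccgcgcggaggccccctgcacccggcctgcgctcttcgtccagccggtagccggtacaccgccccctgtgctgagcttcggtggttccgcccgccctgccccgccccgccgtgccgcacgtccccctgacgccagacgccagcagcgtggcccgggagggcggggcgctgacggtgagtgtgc

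Most members were abundant, and their levels differed widely within each ring although the assembled particle holds every ring subunit in equal number. Of the 48 genes, 45 reached 1 RPKM in at least 2 libraries and were tested, and 39 of these 45 were at or above the median tested gene in every library. Psmb4, a structural subunit of the beta ring, had the highest mean over the 12 libraries (296 rescaled RPKM), followed by Psmc5, an ATPase of the regulatory particle (288 rescaled RPKM). The median member had a mean of 51.2 rescaled RPKM. The alpha ring ran from 6.78 (Psma5) to 153 (Psma6) rescaled RPKM and the constitutive beta ring from 6.35 (Psmb3) to 296 (Psmb4). The ATPases ran from 89.0 (Psmc2) to 288 (Psmc5) rescaled RPKM, and the other regulatory particle subunits ran from 19.8 (Psmd11) to 152 (Psmd4, a ubiquitin receptor).

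Several of the lowest ring genes have processed copies elsewhere in the genome. A search of the GRCm38 genome with each coding sequence found intronless copies of at least 80% of the length and 90% identity for 12 members, 16 copies in all. The identity was 98.9% for the best copy of Psma5, 97.4% for Psmb3, 96.5% for Psma3 and 99.3% for Psme2. The 7 ring members with a copy had a median level of 45.9 rescaled RPKM, and the 7 without one had 110 rescaled RPKM. In the beta ring these sets overlap: Psmb5, with a copy of 98.9% identity, had a mean of 77.7 and Psmb2, with none, 19.8 rescaled RPKM. In the alpha ring they do not. Psma2, Psma3, Psma4 and Psma5, with a copy, had 6.78 to 95.7 rescaled RPKM, and Psma1, Psma6 and Psma7, with none, 103 to 153. The low end of the alpha ring thus rests on genes with a copy. The sources used here do not give how reads that fit several loci were counted, so the levels of these 12 genes are uncertain, and the part of the copies in their levels was not tested. Exons of 13 members also overlap another gene, 11 of them on the opposite strand, by over 10% of their bases in Psmd9, Psmb8, Psmb5, Psmb7 and Psmd13. The library kit does not record strand.

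**Figure D1:**
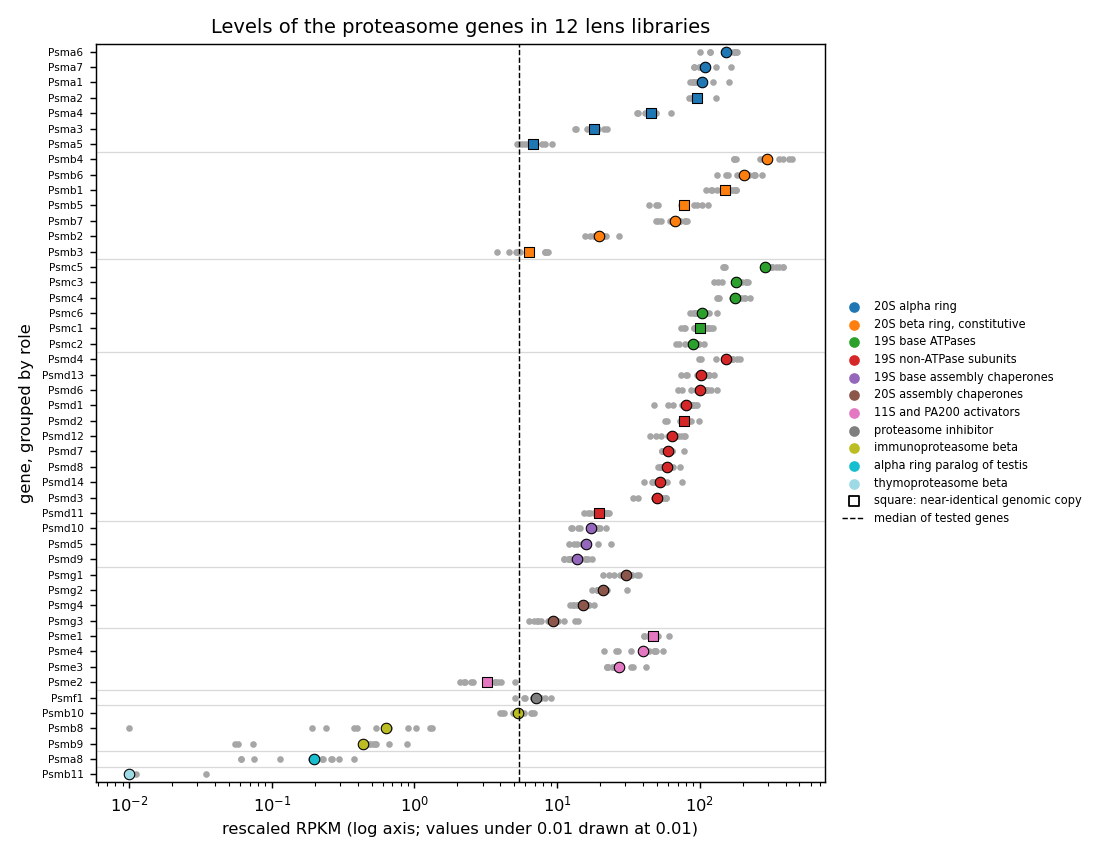
Level of each of the 48 proteasome genes in rescaled RPKM on a log axis, with grey points for the 12 libraries and a coloured symbol for their mean, grouped by role. Squares mark genes with a near-identical genomic copy and the dashed line the median tested gene; the ring subunits span from 6.35 (Psmb3) to 296 (Psmb4), and Psma8, Psmb8, Psmb9 and Psmb11 lie lowest.

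Between E18 and P0, 4 members rose on each of the 3 scales tried: Psmc5, an ATPase; Psme4, the activator PA200; Psmb4, of the beta ring; and Psmd4, a ubiquitin receptor. Psmg3, an assembly chaperone of the core particle, fell on all 3. On deposited RPKM, the scale with the fewest rises, 4 of 45 members (8.89%) rose, where 7.72% of all tested genes did. On that scale 45.1% of tested genes fell. The share of all tested genes called on all 3 scales was not counted. Changes of the group as a whole depended on the scale. Relative to the bulk of expressed genes, many core and regulatory particle genes were low in both E18 pools, but on deposited RPKM and after quantile normalization the median member was not higher at P0.

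Summed over the 48 members, E15 lenses had 3363 ± 816 (SD, n = 2) rescaled RPKM and E18 lenses 2511 ± 48.0; after birth, P0 had 3449 ± 24.1, P3 had 3270 ± 90.7, P6 had 3899 ± 210 and P9 had 3685 ± 247. The E18 pools lay below both pools of every later stage. Deposited RPKM are relative to the library total, crystallins included. On that scale the same sum was 4181 ± 376 (E15) and 3415 ± 6.19 (E18), then 3310 ± 31.4 (P0) and 2962 ± 66.5 (P9). As a share of all RPKM outside the crystallins, members took 1.33 ± 0.137% (E15), 1.17 ± 0.0168% (E18), 1.25 ± 0.0119% (P0) and 1.21 ± 0.0214% (P9). In such whole-lens RNA, a smaller share of one cell type and less RNA per cell cannot be told apart.

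In limma's moderated test over all 12 libraries, a member was called at a Benjamini-Hochberg adjusted p below 0.05 over all 14405 tested genes. Across the 6 stages jointly, 17 of 45 members changed on rescaled values, where 48% of all tested genes did; the count was 8 without either E18 library, 11 without P6 B, 32 without E15 B and 38 without E15 A. The joint share of all tested genes was not counted in the fits with a library left out, so these counts cannot be set against it. From E18 to P0, 16 of 45 members rose (35.6%) and 1 fell, where 18.5% of all tested genes rose and 16.6% fell. The median member changed by 0.26 on the log2 scale, and the median tested gene by -0.00. Both E18 pools were below both P0 pools for 29 of 45 members (64.4%), against 37.4% of tested genes. From E18 to P9, 23 members rose and 1 fell, against 22.3% and 20.2% of tested genes, with a median member change of 0.42.

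On the other scales the direction of the group differed. On deposited RPKM, 4 members rose and 15 fell from E18 to P0, where 7.72% of tested genes rose and 45.1% fell, with a median of -0.17 for members and -0.41 for all tested genes. After quantile normalization, which gives every library the same distribution of values, 6 rose and 7 fell, where 18.3% rose and 17.3% fell, and the median member changed by -0.01. From E18 to P9, 3 rose and 24 fell on deposited RPKM, where 7.49% rose and 63.2% fell, and 6 rose and 10 fell after quantile normalization, where 20.9% rose and 22.6% fell.

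Counts of calls changed when single pools were left out, for members and for all tested genes. From E18 to P0, 4 members rose without E18 B, 6 without E18 A, 6 without P0 A and 5 without P0 B, where 8.95%, 11.1%, 11.5% and 11.7% of tested genes rose. The median member change in these fits was 0.29, 0.31, 0.31 and 0.28, beside 0.26 with all libraries. The member count was also lower without any one P3, P6 or P9 library and higher without either E15 library. The share of all tested genes that rose moved the same way. For the P3, P6 and P9 libraries, which lie outside this step, the member count dropped by the larger part. The median member change in these fits was 0.26 to 0.27. With no filter on low values 8 members rose, where 10.9% of tested genes did. From E18 to P9, 5 members rose without E18 B, 9 without E18 A, 8 without P9 A and 11 without P9 B, where 14.7%, 15.4%, 15.5% and 17.9% of tested genes rose. The median member change was then 0.40, 0.41, 0.32 and 0.45, beside 0.42 with all libraries.

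Markers of other tissues moved over the same step. The summed deposited RPKM of 10 retina genes was 473 and 442 in the E18 pools and 62.4 and 50.8 in the P0 pools, with all 10 higher in mean at E18. The 10 macrophage genes summed to 101 and 125 at E18 and to 19.96 and 40.0 at P0, all 10 higher at E18, and 6 erythroid genes summed to 1834 and 2055 at E18 and to 66.2 and 153 at P0. The 10 lens genes summed to 66364 and 68556 at E18 and to 108389 and 102531 at P0. No defining marker of the retina, macrophage or erythroid lists was at 0 in all libraries, and their part in the change of the proteasome genes was not tested.

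Within the core particle, more genes of the beta ring than of the alpha ring rose on rescaled values, on which all levels and changes below are given unless another scale is named. From E18 to P0, 3 of 7 constitutive beta genes rose and 1 of 7 alpha genes (Psma6), with median changes of 0.41 and 0.02 on the log2 scale. From E18 to P9, 5 beta genes and 1 alpha gene rose. Psmb4 had 180 and 263 rescaled RPKM in the E15 pools, 174 and 173 at E18, 299.6 and 298 at P0, 287 and 278 at P3, 383 and 441 at P6, and 420 and 360 at P9. Every postnatal pool of Psmb4 was above every embryonic pool. It rose from E18 to P0 by 0.78 ± 0.18 (SE; limma adjusted p = 0.00766) and from E15 to P9 by 0.83 ± 0.18 (limma adjusted p = 0.00376).

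The 3 proteolytic subunits of the beta ring had their lowest stage mean at E18. Psmb5, which holds the chymotrypsin-like site, had 50.7 and 78.5 rescaled RPKM at E15, 44.3 and 49.2 at E18, 79.7 and 77.2 at P0, 73.9 and 74.6 at P3, 96.4 and 114 at P6, and 103 and 90.4 at P9. The E18 pools of Psmb5 were lowest, and E15 B overlapped with P0. It rose by 0.74 ± 0.18 from E18 to P0 (limma adjusted p = 0.0117; 0.38 after quantile normalization, limma adjusted p = 0.0273; 0.24 on deposited RPKM, limma adjusted p = 0.105) and by 0.61 ± 0.18 from E15 to P9 (limma adjusted p = 0.0222). Psmb6, with the caspase-like site, rose from E18 (131 and 157) to P0 (199 and 212 rescaled RPKM; log2 change 0.52 ± 0.18, limma adjusted p = 0.0444), but not on deposited RPKM (0.02) or after quantile normalization (-0.05). Psmb7, with the trypsin-like site, had 51.1 and 53.8 at E18 and 67.9 and 72.0 rescaled RPKM at P0, which did not pass (log2 change 0.41 ± 0.19, limma adjusted p = 0.117). It rose from E18 to P9 (79.4 and 72.3 rescaled RPKM; log2 change 0.52 ± 0.19, limma adjusted p = 0.0467), but its change was -0.22 on deposited RPKM.

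Of the alpha ring genes, Psma6 alone passed for a rise, and Psma1 and Psma7 fell. Psma7 had 130 and 165 rescaled RPKM at E15, 109 and 106 at E18, 105 and 112 at P0, 90.9 and 98.5 at P3, 105 and 103 at P6, and 100.1 and 90.7 at P9. Both E15 pools of Psma7 were above all later pools, which lay between 90.7 and 112. It fell from E15 to P9 by 0.62 ± 0.13 on the log2 scale (limma adjusted p = 0.00384), and Psma1 fell by 0.58 (limma adjusted p = 0.00597). Psma6 had 117 and 99.7 rescaled RPKM at E18 and 155 and 154 at P0, a rise of 0.51 ± 0.18 (limma adjusted p = 0.0438) that was not there on deposited RPKM (0.01) or after quantile normalization (0.03). From E18 to P0, Psma7 was at 0.02 on rescaled values, and it fell on deposited RPKM (by 0.48, limma adjusted p = 0.00300) and after quantile normalization (by 0.43, limma adjusted p = 0.00412). Psma2, Psma3, Psma4 and Psma5 passed neither comparison, with log2 changes of -0.13 to 0.12 from E18 to P0.

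The ratio of the rings within a library is the same on deposited and rescaled RPKM, since rescaling divides each library by a single factor. Quantile normalization can change such ratios, and they were not computed on that scale. Summed RPKM of the constitutive beta ring was 1.14 ± 0.0865 (SD, n = 2) times that of the alpha ring in E15 lenses and 1.18 ± 0.0925 times in E18 lenses. After birth the ratio was 1.56 ± 0.00212 (P0), 1.55 ± 0.0291 (P3), 1.91 ± 0.159 (P6) and 1.95 ± 0.0219 (P9). All 8 postnatal libraries (1.53 to 2.02) were above all 4 embryonic ones (1.08 to 1.25). The order held without Psmb4 (embryonic 0.742 to 0.869, postnatal 0.963 to 1.22), with the ring members that have a genomic copy left out (1.08 to 1.35 and 1.55 to 2.14), and for geometric means that weight the members equally (0.990 to 1.11 and 1.23 to 1.65). The ATPase ring stood at 1.36 ± 0.135 (E15) and 1.38 ± 0.0757 (E18) times the alpha ring, then at 1.85 ± 0.0671 (P0) and 2.06 ± 0.0504 (P9). The other regulatory particle subunits stood at 1.40 ± 0.0210 (E15) and 1.31 ± 0.0103 (E18), then at 1.61 ± 0.0146 (P0) and 1.66 ± 0.0173 (P9). Between single genes, Psmb5 per Psma7 was 0.389 and 0.477 in the E15 pools and 1.03 and 0.997 in the P9 pools. No test of these ratios was made, because the members had been chosen with results known.

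**Figure D2:**
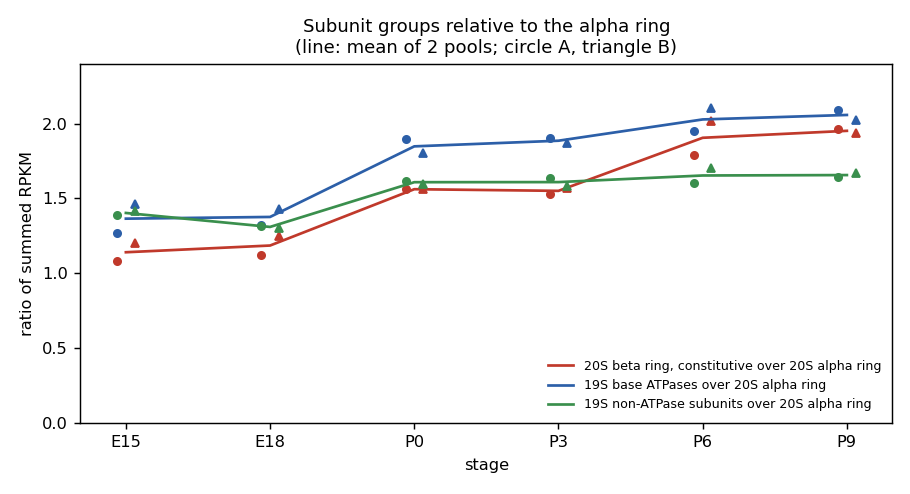
Summed RPKM of the constitutive beta ring, the ATPases and the other regulatory particle subunits relative to the alpha ring, by stage; points are the 2 pools and lines their mean, on an axis from 0. The beta to alpha ratio lay between 1.08 and 1.25 in embryonic and between 1.53 and 2.02 in postnatal libraries.

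In the regulatory particle, 3 of 6 ATPases and 7 of 11 other subunits rose from E18 to P0, and none fell, on rescaled values. Psmc5, the ATPase with the largest change, had 148 and 283 rescaled RPKM at E15, 150 and 146 at E18, 323 and 317 at P0, 320 and 295 at P3, 358 and 386 at P6, and 381 and 344 at P9. The E15 A pool and the E18 pools were alike, and E15 B lay just under the postnatal range. Psmc5 rose by 1.10 ± 0.24 from E18 to P0 (limma adjusted p = 0.00623) and by 0.82 ± 0.24 from E15 to P9 (limma adjusted p = 0.0188). Psmc1 and Psmc3 rose as well, by 0.57 and 0.49, while Psmc2, Psmc4 and Psmc6 had log2 changes of 0.32, 0.37 and 0.21 that did not pass.

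Psmd4, the ubiquitin receptor with the highest level of its group, had 129 and 192 rescaled RPKM at E15, 102 and 98.3 at E18, 169 and 171 at P0, 152 and 153 at P3, 161 and 183 at P6, and 160 and 159 at P9. The E18 pools were below all others. Psmd4 fell from E15 to E18 by 0.65 ± 0.17 (limma adjusted p = 0.0397) and rose again to P0 by 0.76 ± 0.17 (limma adjusted p = 0.00657). The large scaffold subunits Psmd1 and Psmd2 rose by 0.73 and 0.49 from E18 to P0, and Psmd3, Psmd11, Psmd12 and Psmd13 by 0.37 to 0.63. Psmd14, the deubiquitinase of the particle, had 49.4 and 40.9 rescaled RPKM at E18 and 50.1 and 49.8 at P0 (log2 change 0.15 ± 0.14, limma adjusted p = 0.426).

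The 4 members that rose on every scale from E18 to P0 changed on deposited RPKM by 0.60 (Psmc5, limma adjusted p = 0.0102), 0.42 (Psme4, limma adjusted p = 0.0249), 0.28 (Psmb4, limma adjusted p = 0.0360) and 0.26 (Psmd4, limma adjusted p = 0.0460). After quantile normalization they changed by 0.54 (Psmc5, limma adjusted p = 0.0146), 0.68 (Psme4, limma adjusted p = 0.00646), 0.24 (Psmb4, limma adjusted p = 0.0206) and 0.28 (Psmd4, limma adjusted p = 0.0275). Psmg3 fell by 1.05 (limma adjusted p = 0.00230) and by 0.65 (limma adjusted p = 0.00774) on these scales. From E15 to P9 on deposited RPKM, all 7 alpha ring genes, all 11 non-ATPase subunits, 5 of 6 ATPases and 3 of 7 constitutive beta genes fell, where 55.4% of all tested genes did.

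**Figure D3:**
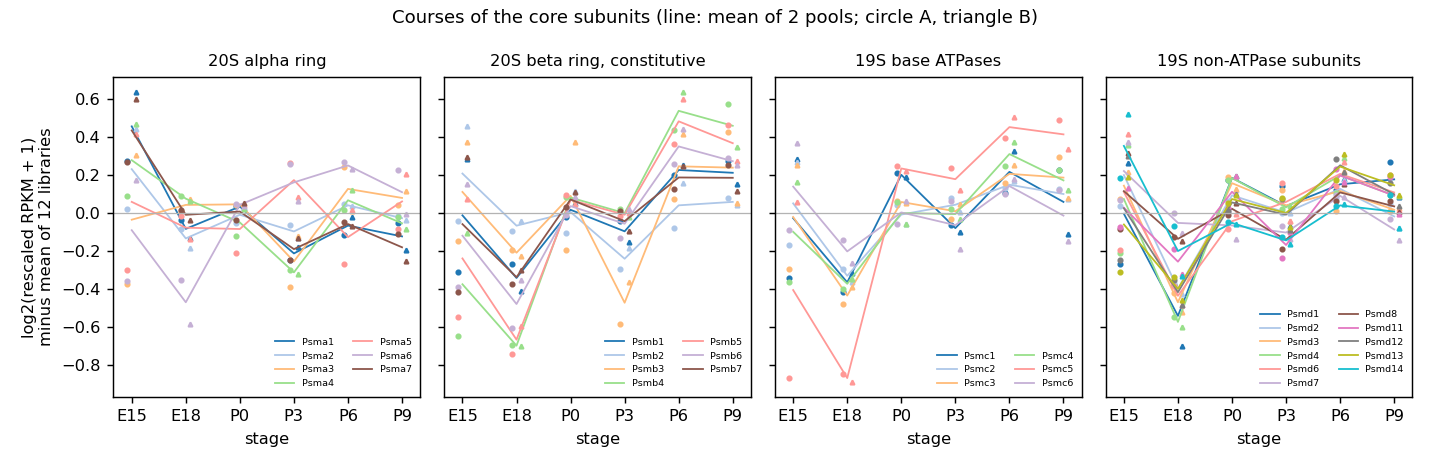
Course of each alpha ring, constitutive beta ring, ATPase and non-ATPase subunit gene, as log2(rescaled RPKM + 1) minus its mean over the 12 libraries; lines join the means of the 2 pools, circles are pool A and triangles pool B. Most beta, ATPase and non-ATPase genes are lowest at E18 on this scale, and E15 A and E15 B lie apart.

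Among the activators, which dock on the core particle in place of the regulatory particle, the members moved apart. Psme4 encodes PA200, an activator of the nucleus, and had 26.9 and 33.1 rescaled RPKM at E15, 25.7 and 21.4 at E18, 49.3 and 41.0 at P0, 55.5 and 41.4 at P3, 47.4 and 48.8 at P6, and 48.6 and 44.4 at P9. All postnatal pools of Psme4 were above all embryonic pools. It rose by 0.91 ± 0.17 from E18 to P0 (limma adjusted p = 0.00314) and by 0.62 ± 0.17 from E15 to P9 (limma adjusted p = 0.0138). Psme3, the nuclear PA28 gamma, fell from 41.7 and 34.1 rescaled RPKM at E15 to 22.5 and 26.3 at P9 (by 0.61 ± 0.18, limma adjusted p = 0.0177). Psme1, the interferon-inducible PA28 alpha, fell from 49.1 and 61.1 to 43.8 and 40.5 (by 0.37 ± 0.12, limma adjusted p = 0.0340). Its ring partner Psme2 was listed at 4.54% to 12.4% of Psme1, and carries the 99.3% identical copy described above.

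The inhibitor Psmf1 rose from 5.86 and 5.10 rescaled RPKM at E18 to 7.38 and 9.07 at P9 (0.51 ± 0.13, limma adjusted p = 0.0117), but its change was -0.15 on deposited RPKM. Of the core particle chaperones, Psmg3 fell: it had 13.9 and 13.3 rescaled RPKM at E15, 10.1 and 11.2 at E18, 7.28 and 6.31 at P0, and 6.88 and 7.67 at P9. Its pools at E15, E18 and P0 did not overlap, and it was the 1 member that fell from E18 to P0 (by 0.58 ± 0.15, limma adjusted p = 0.0120). It also fell from E15 to P9, by 0.82 ± 0.15 (limma adjusted p = 0.00137). Psmg1 moved the other way from E18 (23.3 and 21.0) to P0 (32.8 and 33.2 rescaled RPKM; log2 change 0.56 ± 0.17, limma adjusted p = 0.0298; 0.07 on deposited RPKM, limma adjusted p = 0.641). Psmd5, a chaperone of the ATPase ring, fell from 19.3 and 23.7 rescaled RPKM at E15 to 13.1 and 12.1 at P9 (by 0.72 ± 0.12, limma adjusted p = 0.00110), while Psmd10 (gankyrin), of like function, had 12.5 and 17.5 at E15 and 19.8 and 17.8 at P9 (log2 change 0.32 ± 0.18, limma adjusted p = 0.177).

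**Figure D4:**
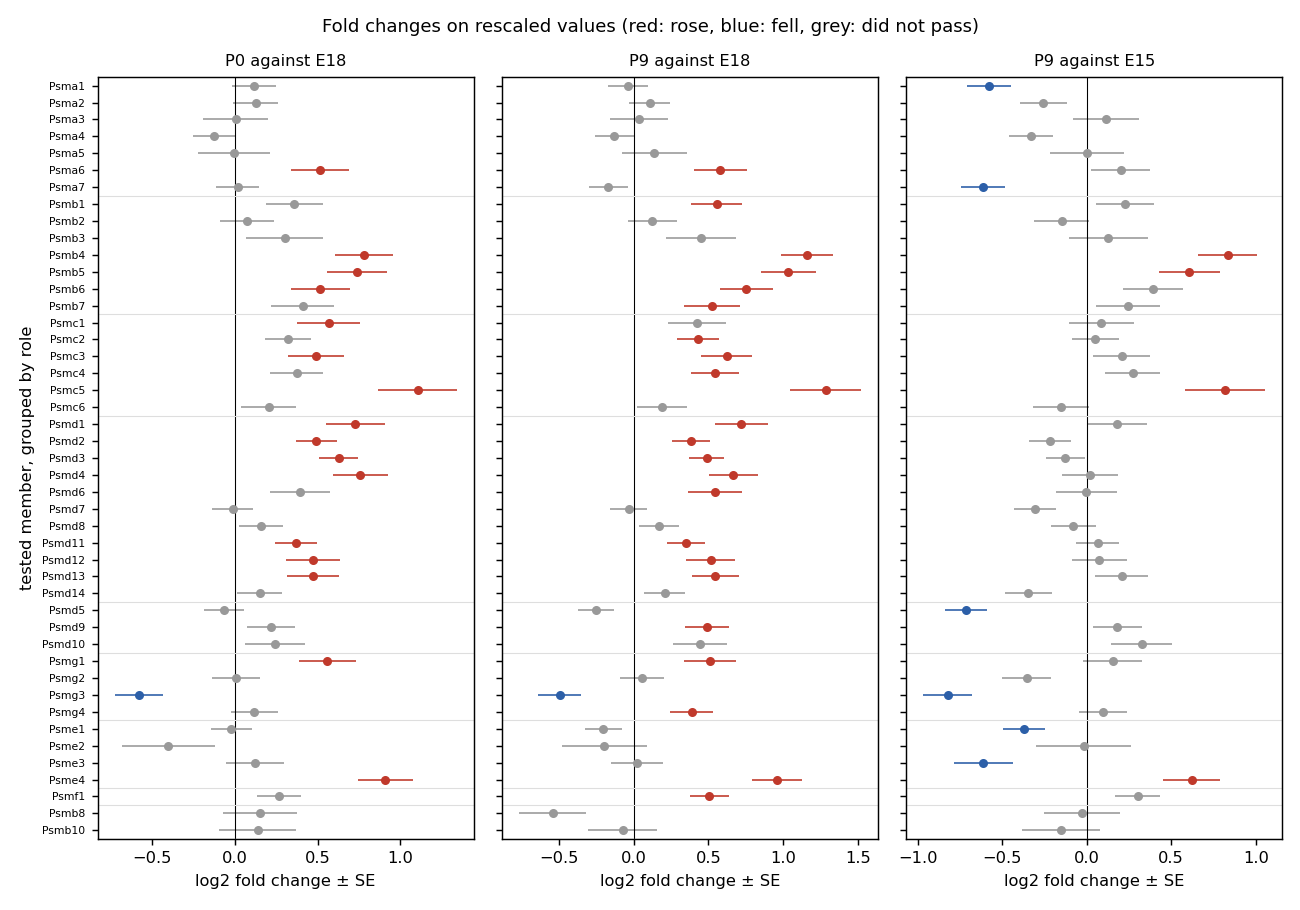
Log2 fold change ± SE of the 45 tested members for P0 against E18, P9 against E18 and P9 against E15 on rescaled values, grouped by role; red points rose, blue points fell and grey points did not pass. In P0 against E18, 16 points are red and 1 (Psmg3) is blue; in P9 against E15, 4 are red and 6 are blue.

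From E15 to P9, 4 members rose (Psmb4, Psmb5, Psmc5, Psme4) and 6 fell (Psma1, Psma7, Psmd5, Psme1, Psme3, Psmg3), where 20.6% of tested genes rose and 20.6% fell. On deposited RPKM 0 rose (0 also at an unadjusted p under 0.05 in limma) and 35 fell, where 8.65% of tested genes rose and 55.4% fell. Jointly, 37 of 45 members and 74.2% of tested genes changed on that scale. After quantile normalization 3 rose and 18 fell, where 20.4% rose and 22.9% fell. The E15 pools differed: 41 of 45 members were higher in E15 B than in E15 A, by a median of 0.45 on the log2 scale. The share of all tested genes higher in E15 B was not counted. Their median absolute difference between the pools, whatever its direction, was 0.29. Relative to each gene's mean over the 12 libraries, the median member was at -0.15 in E15 A and 0.29 in E15 B. The median tested gene was at 0.02 in both pools. Retina genes summed to 767 deposited RPKM in E15 A against 204 for B, and lens genes to 51975 against 80660; their part in the difference was not tested. Without E15 A, 2 members rose and 14 fell from E15 to P9, where 2688 of 14263 tested genes rose and 2713 fell, and the median member changed by -0.20. Without E15 B, 18 rose and 5 fell, where 24.3% rose and 23.6% fell, and the median member changed by 0.27. Without P9 A, 1 rose and 4 fell, where 15.2% rose and 14.3% fell, and without P9 B, 3 rose and 4 fell, where 15.3% rose and 14.1% fell.

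From E15 to E18, limma called 0 members higher (1 at an unadjusted p under 0.05) and 6 members fell (Psma1, Psmd2, Psmd3, Psmd4, Psmd5, Psmd14), where 4.71% of tested genes rose and 3.77% fell. The median member changed by -0.34, and 42 of 45 had a negative change. Over all tested genes the median was -0.04, and 7832 of 14405 had a negative change. So did 77 of 80 cytosolic ribosomal protein genes (median -0.34) and 7 of 7 chaperonin genes (median -0.57), families compared below. The count of members that fell was 6 with all libraries. That count was 3 after quantile normalization, 33 without E15 A, 2 without E15 B, 0 without E18 A and 0 without E18 B. In the last 4 of these, 19.2%, 1.89%, 0.204% and 0.204% of tested genes fell, and the median member change was -0.58, -0.12, -0.35 and -0.31. The count of members that fell was also lower without any one of the P0, P3, P6 or P9 libraries, as was the share of all tested genes. The median member change was -0.34 in each of these fits.

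Between neighbouring postnatal stages limma called 0 members in either direction. From P0 to P3, 0.278% of tested genes rose and 0.104% fell; at an unadjusted p under 0.05, 1 member was higher and 2 were lower. From P3 to P6, 0.535% rose and 0.75% fell, and 7 members were higher and 1 was lower at the unadjusted p. All 7 constitutive beta genes had a positive change in that step (median 0.41), as did all 6 ATPases and all 11 non-ATPase subunits. So did 40 of 45 members, 73 of 80 cytosolic ribosomal protein genes, 7 of 7 chaperonin genes and 7743 of 14405 tested genes. When both E15 libraries were left out, 6 members rose, where 4.39% of tested genes did. The median member change was 0.16 in that fit and 0.17 without either single E15 library, beside 0.17 with all libraries. From P6 to P9, 0.236% rose and 0.0694% fell, and no member was higher and 1 was lower at the unadjusted p.

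Immunoproteasome genes, whose products replace the proteolytic beta subunits in immune and interferon-treated cells, stayed far below their constitutive counterparts. Psmb8 was at 0% to 1.83% of Psmb5, Psmb9 at 0.0235% to 0.505% of Psmb6 and Psmb10 at 5.03% to 10.2% of Psmb7 in the 12 libraries. Psmb8 had 0.537 rescaled RPKM in E15 A and was listed at 0 in E15 B. It then had 0.646 and 0.903 at E18, 0.661 and 1.33 at P0, 1.29 and 1.03 at P3, 0.378 and 0.394 at P6, and 0.190 and 0.241 at P9. Its levels from E18 to P3 were above those at P6 and P9, but they rest on at most 66.8 estimated reads, and it passed the filter only through its highest libraries. Macrophage genes summed to 113 ± 16.6 deposited RPKM at E18, 55.3 ± 3.53 at P3 and 7.74 ± 3.31 at P9, and their part in the Psmb8 level was not tested. Psmb9 was not tested, with a mean of 0.432 rescaled RPKM and 0.0577 and 0.0735 at P9. Psmb10 was at 3.99 to 6.83 rescaled RPKM in all libraries and passed none of the comparisons between stages. The testis paralog Psma8 was at 0.0593% to 0.358% of Psma7, and Psmb11, of thymus epithelium, was listed at 0 in 9 of 12 libraries.

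Members differed in how closely they kept to the common course. Over the 6 stage means, 22 of 45 had a Pearson correlation of at least 0.8 with the median course of the members, a description across stages that share their libraries. These were 6 of 6 ATPases, 8 of 11 non-ATPase subunits and 5 of 7 constitutive beta genes, but 1 of 7 alpha genes. That course was the median of the other tested members, so roles with many genes match it in part by construction. The share of all tested genes that reach 0.8 was not counted. The highest value was that of Psmd12, a lid subunit (r = 0.98). The lowest was that of Psmb8 (r = -0.49), which was listed at 0 in E15 B and rests on few reads. Psma7 (r = 0.00), Psma4 (r = -0.01), Psme1 (r = -0.15) and Psmg3 (r = -0.34) did not follow the median course.

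Promoter letters were counted in the 40 members with a RefSeq window. The ETS core CCGGAAG, on either strand, was in 14 of 40 (35%), beside 19.2% of the 9411 tested genes and 9.93% of all 27025 genes with a window. It was in 9 of 14 members that rose from E18 to P0 on rescaled values (64.3%) and in 5 of the 26 other members (19.2%). These 5 were Psmc2, Psmc6, Psmd6, Psme3 and Psmg3, of which Psmg3 fell in that step. Of the 4 members that rose on every scale, Psmd4 and Psme4 hold the ETS core. Psmb4 and Psmc5 hold none of the motifs searched. The antioxidant response core TGACNNNGC, a motif read by the factor Nfe2l1 with a small Maf partner, was in 6 of 40 members (15%), beside 17.2% of tested genes. It was in 4 of 14 risers and 2 of 26 others. The CCAAT box was in 14 of 40 (35%), beside 43.5% of tested genes. In the windows printed above, the ETS core begins at base -125 of Psmd4, -17 of Psmd12 (minus strand) and -53 of Psme4, counted from the annotated start. These are matches of letters and not binding sites, and no test was made.

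Genes that act with the proteasome were read from lists chosen by function. Beside each count below, the share of all tested genes from E18 to P0 was 18.5% up and 16.6% down on rescaled values, and 7.72% up and 45.1% down on deposited RPKM. Of 10 partner genes, 3 rose and none fell from E18 to P0, and 2 rose and 4 fell on deposited RPKM. From E15 to P9, 2 rose and 1 fell (20.6% up and 20.6% down over all tested genes). On deposited RPKM 1 rose and 6 fell over that span (8.65% up and 55.4% down over all tested genes). Zfand5, a zinc finger protein that stimulates the proteasome, rose from 7.34 and 9.40 rescaled RPKM to 24.97 and 22.1 (1.39 ± 0.15, limma adjusted p = 5.23e-05), and on deposited RPKM too (0.80). Pomp, the maturation factor of the core particle, rose from 25.7 and 43.8 to 55.3 and 48.2 (0.61 ± 0.21, limma adjusted p = 0.0367; -0.02 on deposited RPKM). Usp14, a deubiquitinase bound to the particle, fell by 0.45. Adrm1, a ubiquitin receptor named here after its values were seen, had 3.25 and 3.06 rescaled RPKM at E18 and 6.93 and 8.88 at P0 (1.09 ± 0.18, limma adjusted p = 0.00211). Shfm1, a small lid subunit, had 156 and 167 at E18 and 147 and 157 at P0.

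Of 8 genes that control proteasome expression, 3 rose and none fell from E18 to P0, and 2 rose and 1 fell on deposited RPKM. Between E15 and P9, 2 rose and none fell, where 20.6% of tested genes rose and 20.6% fell. On deposited RPKM 0 rose and 4 fell over that span, where 8.65% of tested genes rose and 55.4% fell. Nfe2l1, the transcription factor that induces proteasome genes, had 22.2 and 25.4 rescaled RPKM at E15, 21.7 and 21.2 at E18, 42.4 and 39.7 at P0, and 42.9 and 42.9 at P9. Its P0 and P9 pools were all above its embryonic pools. It rose from E18 to P0 by 0.90 ± 0.12 (limma adjusted p = 0.00105) and on deposited RPKM by 0.42 (limma adjusted p = 0.00821). On rescaled values, Nfe2l1 rose by 0.83 and its partner Mafk by 0.46 from E15 to P9. Neither passed on deposited RPKM, with changes of 0.20 (Nfe2l1, limma adjusted p = 0.109) and 0.00 (Mafk, limma adjusted p = 0.984).

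Of 6 ubiquitin and ubiquitin-activating genes, 2 rose and 1 fell from E18 to P0, and 0 rose and 1 fell on deposited RPKM. The polyubiquitin gene Ubb rose from 271 and 330 rescaled RPKM at E15 to 475 and 470 at P9 (0.66 ± 0.14, limma adjusted p = 0.00397), and the activating enzyme Uba6 fell from 6.29 and 6.40 to 2.83 and 2.54 (by 1.00 ± 0.14, limma adjusted p = 0.000400). Of 8 shuttle and extraction factors, which carry ubiquitinated proteins to the proteasome, 5 rose and 1 fell from E18 to P0, and 1 rose and 2 fell on deposited RPKM. From E15 to P9, Ufd1l rose by 0.53 and Ubqln1 by 0.51, and Ubqln4 fell by 0.66. Of these, Uba6 and Ubqln4 also fell on deposited RPKM, while Ubb, Ufd1l and Ubqln1 had changes of 0.01, -0.09 and -0.12 there.

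The list for MHC class I peptide loading, the immune use of proteasome products, also holds regulators, and 4 of its genes were tested (Tapbp, B2m, Nlrc5 and Irf1). Of these, 2 rose (Tapbp and Nlrc5) and none fell from E18 to P0. On deposited RPKM 1 rose and B2m fell (by 1.12, limma adjusted p = 0.00729). Tap1 and Tap2, of the same list, were under the filter, with means of 0.447 and 0.590 rescaled RPKM. Nlrc5, a transactivator of MHC class I genes, rose from 1.76 and 4.09 rescaled RPKM at E15 to 15.3 and 16.9 at P0 and 32.9 and 35.6 at P9 (3.23 ± 0.24 from E15 to P9, limma adjusted p = 4.78e-06), and by 2.69 on deposited RPKM. Tapbp, which holds class I molecules at the peptide transporter, rose by 1.16 from E15 to P9. B2m, the light chain of class I molecules, fell by 0.65 over the same span, while Psmb8 and Psmb10 did not pass.

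Gene families of other large assemblies were compared by counts alone. From E18 to P0, 8 of 80 tested cytosolic ribosomal protein genes, 3 of 7 chaperonin genes and 9 of 36 complex I genes rose and none fell, beside the 16 of 45 proteasome genes and 18.5% of all tested genes; the median changes were 0.21, 0.42, 0.34 and 0.26. On deposited RPKM the counts in that step were 0 up and 22 down, 0 up and 1 down, and 3 up and 5 down, where 7.72% of tested genes rose and 45.1% fell. From E15 to P9, 15 ribosomal protein genes fell and none rose (median -0.21), and 14 complex I genes rose and 2 fell (median 0.36), where 20.6% of tested genes rose and 20.6% fell, while the proteasome median was 0.05. On deposited RPKM the complex I direction reversed, with 2 up and 15 down (median -0.26), and 68 ribosomal protein genes fell, where 55.4% of tested genes fell. The median of all 4 families was below 0 in both E18 pools on rescaled values, and no difference between the families was tested.

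**Figure D5:**
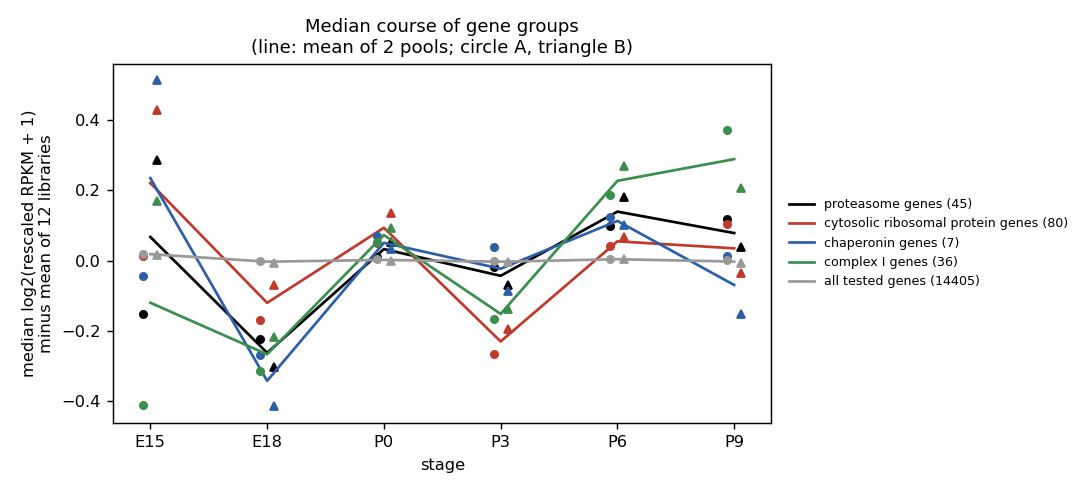
Median over genes of log2(rescaled RPKM + 1) minus each gene's mean over the 12 libraries, for proteasome, ribosomal protein, chaperonin and complex I genes and for all tested genes, by stage; points are the 2 pools and lines their mean. The proteasome median is at -0.22 and -0.30 in the E18 pools and at 0.01 and 0.05 in the P0 pools, and all 4 families are below 0 at E18.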

How the data were processed

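Per the labels' protocols, total RNA of pooled lenses was extracted with Trizol and sequenced from TruSeq RNA v2 libraries. The submitters' processing notes name Bowtie 0.12.8, SAMtools 0.1.18 and the build GRCm38/mm10, with no role given. The deposited mRNA values were read as RPKM from the values themselves, since low values are whole multiples of a step set by transcript length: within 0.1 read, 84.8% to 89.1% of low values per library were whole, where chance gives 20%. That step gave the depths; no read counts were tested. Each library was divided by its median ratio to the geometric means over genes above 0 in all libraries. Genes of at least 1 deposited RPKM in at least 2 libraries (14405) were tested as log2(value + 1) with limma 3.58.1 in R 4.3.3, with stage as factor and 6 residual degrees of freedom, an intensity trend and Benjamini-Hochberg adjustment; fold changes understate low genes. The fit was tested on simulated data. Copies were searched with minimap2 2.31.

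Members and lists were chosen with earlier results of these data known. Named members were those with the largest called rise and fall from E15 to P9 and the highest mean in each role, the proteolytic subunits with their immune counterparts, members called against their role list, and members under the filter; in each partner list, up to 3 called genes with the largest change from E15 to P9. Further members are given by range or count, and others named were chosen after their values were seen. Marker lists covered lens, retina, macrophage, endothelium, erythroid, mesenchyme and surface epithelium genes. Endothelium genes summed to 137 deposited RPKM at E18 and 70.2 at P0, mesenchyme genes to 8.73 and 3.83, and surface epithelium genes to 3.19 and 0.539. Small RNA libraries were not used here. Alternatives were other scales, pseudocount, filters, a block on the pool letter, no trend, and leaving out each library; the fit without the E18 libraries was chosen after seeing the data.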

Additional observations from a re-analysis of the deposited data

How the results depend on the processing

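On deposited RPKM, among named members called on either scale, log2 changes from E15 to P9 turned negative for Psme4 (-0.0077), Psma6 (-0.44), Psmb5 (-0.031), Psmg1 (-0.47), Psmb7 (-0.39) and Psmd4 (-0.62). From E18 to P9 they did so for Psmb6 (-0.00085), Psme3 (-0.70), Psma6 (-0.17), Psmg1 (-0.22), Psmb7 (-0.22), Psmf1 (-0.15) and Psmd4 (-0.086), and from E18 to P0 for Psma7 (-0.48). Another 9 positive changes of named members in these comparisons turned negative with no call on either scale. Deposited counts were 37 members changing jointly, 0 rising and 35 falling from E15 to P9, 3 and 24 from E18 to P9, and 4 and 15 from E18 to P0. Under quantile normalization, Psmd4 was at -0.32 from E15 to P9, Psma6 at -0.0076 from E18 to P9, and Psmb6 at -0.050 and Psma7 at -0.43 from E18 to P0. There, 18 members fell from E15 to P9, 6 rose and 10 fell from E18 to P9, 3 fell from E15 to E18, and 6 rose and 7 fell from E18 to P0. Over all tested genes 2.83% fell from E15 to E18, and the other shares are given above. With no filter, 2 members fell from E18 to P9 and 8 rose from E18 to P0, where 13.6% and 10.9% of tested genes did. Without the E15 libraries, 28 members changed jointly, 3 fell from E18 to P9 (24.3% of tested genes) and 6 rose from P3 to P6 (4.39%). Without the E18 libraries, 6 members changed jointly. The joint share of all tested genes was not counted in these fits. Deposited and rescaled values of a library differ only by its factor, which was 1.34 and 1.38 in the E18 pools and 0.958 and 0.961 in the P0 pools. The cause of the shifts in the other fits was not tested.

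Leaving out 1 library each gave 8 to 38 members changing jointly; 1 to 18 rising and 4 to 14 falling from E15 to P9; 5 to 25 rising and 0 to 3 falling from E18 to P9; 0 to 1 rising and 0 to 33 falling from E15 to E18; 4 to 21 rising and 0 to 1 falling from E18 to P0; and 0 to 6 rising from P3 to P6. Without E15 A, Psmd4 was at -0.27 from E15 to P9, and without E15 B at 0.30. A group left with 1 pool is assumed to vary like the others. Pool letters share only a letter: differences between the pools correlated at -0.27 to 0.22 between stages. With the letter as a replicate block, 10 members rose from E18 to P0, where 17.6% of tested genes did. Pseudocount 0.1 and the filter of 5 RPKM changed no call among the 17 named members. Levels under 1 RPKM rest on few reads.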
